A study of Mus musculus with 6 samples.

Results

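The genes described here are 10 regulators and markers of the skeletal muscle lineage: Pax7, Pax3, Myf5, Myod1, Myog, Myf6, Mymk, Msc, Cdh15 and Mef2c. They are 10 of the 37991 gene rows in each count file, matched by Ensembl identifier, and the set was chosen by its levels in mutant against control cells, in which Myog, Msc and Cdh15 are higher. That comparison is therefore given for the members as a description. Where a member is said to be called, the call comes from the fit over all genes, and it is not evidence about the set. The study sequenced RNA of cells that express a Nestin-GFP reporter, sorted from skin without its epidermis but with its layer of white fat, in mouse pups 3 days old. The 3 mutant libraries came from mice labelled Nes-GFP;Nes-Cre;PDGFRα+/[S]D842V, which held the reporter, a Cre recombinase driven by Nestin sequence, and D842V, a change that keeps the receptor active, on 1 of their Pdgfra alleles. The 3 control libraries are labelled Nes-GFP+ cells, which names the reporter and does not say whether recombinase or allele was present. By these labels, an effect of the recombinase and one of the allele cannot be told apart. The labels do not say what "[S]" stands for.

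Skeletal muscle forms from progenitors that pass through an ordered set of transcription factors. Pax3 and Pax7 mark embryonic muscle progenitors, and Pax7 marks the satellite cell, the resident stem cell of muscle. The basic helix-loop-helix factors Myf5 and Myod1 commit cells to the lineage, Myog drives terminal differentiation and Myf6 acts late, in fibres. All 4 bind E-boxes, short DNA elements of the form CANNTG, with E-protein partners, and they act together with MEF2 factors such as Mef2c. Mymk is a membrane protein required for myoblast fusion, Cdh15 is the M-cadherin of satellite cells and myoblasts, and Msc is a helix-loop-helix repressor related to the myogenic factors. In mouse skin a thin sheet of skeletal muscle lies beneath the dermal fat, and Nestin is made by muscle progenitors as well as by pericytes.

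Promoter sequence was held by the RefSeq table used here (build GRCm38.p6) for 5 of the 10 members. Those of Myog and Cdh15 are shown because both genes are among the 3 for which the set was assembled, and that of Pax7 because it marks the stem cell at the start of the same lineage. Each window runs from 250 bases before to 50 bases after the start site, 5′ to 3′ on the strand of the gene, with CANNTG in capitals:
Myog (chr1:134289754-134290053, plus strand): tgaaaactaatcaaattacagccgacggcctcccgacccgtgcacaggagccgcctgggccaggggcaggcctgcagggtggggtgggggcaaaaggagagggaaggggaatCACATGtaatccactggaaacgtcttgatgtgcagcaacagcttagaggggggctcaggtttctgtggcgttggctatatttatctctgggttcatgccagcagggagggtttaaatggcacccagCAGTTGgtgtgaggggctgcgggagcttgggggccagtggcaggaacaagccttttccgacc
Cdh15 (chr8:122848124-122848423, plus strand): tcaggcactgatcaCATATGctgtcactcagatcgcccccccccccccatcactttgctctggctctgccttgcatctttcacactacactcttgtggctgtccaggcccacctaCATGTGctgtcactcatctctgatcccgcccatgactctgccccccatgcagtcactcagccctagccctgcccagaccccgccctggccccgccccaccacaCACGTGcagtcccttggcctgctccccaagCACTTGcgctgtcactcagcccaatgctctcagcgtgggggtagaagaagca
Pax7 (chr4:139832919-139833218, minus strand): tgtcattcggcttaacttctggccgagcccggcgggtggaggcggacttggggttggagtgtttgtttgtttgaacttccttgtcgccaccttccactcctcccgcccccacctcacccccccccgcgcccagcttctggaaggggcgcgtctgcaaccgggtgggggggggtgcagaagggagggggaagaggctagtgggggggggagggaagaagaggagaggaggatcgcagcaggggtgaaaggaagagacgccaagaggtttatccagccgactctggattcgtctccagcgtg

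The Myog window held 2 E-boxes, CACATG with its first base at -138 and CAGTTG at -12. The Cdh15 window held 4, at -236, -135, -32 and -2, and the Pax7 window held none. CANNTG, which reads the same on both strands, occurred at least once in 72.3% of 32851 RefSeq promoter windows of this length. At least 2 occurred in 39.6% of them and at least 4 in 6.49%. The form CAGCTG, found in 16.3% of all windows, was in none of the windows of Myog, Cdh15, Pax7, Myf5 and Mef2c. These matches describe letters in the windows and were not measured as binding.

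Gene counts per library ran from 15110824 to 18792939 in mutants and from 11912469 to 15839701 in controls. A count of 0 allows up to 3 counts, between 0.16 and 0.252 CPM (counts scaled to a common library total), and this limit covers counting error only. CPM values are scaled by TMM, which corrects library totals for composition, and errors are SD over 3 libraries per group. Pdgfra itself averaged 358 ± 11.9 CPM in mutants and 844 ± 21.1 CPM in controls (n = 3 each), and Nes averaged 84.3 ± 13.5 CPM in mutants and 74.4 ± 5.83 CPM in controls (n = 3 each, edgeR adjusted p = 0.28). The series title calls the cells pericytes. All 9 pericyte markers were detected, with summed levels of 1180 to 1460 CPM in mutants and 1220 to 1530 CPM in controls. By edgeR 2 of them were called higher and 0 lower (3 and 0 by DESeq2, 3 and 1 at an unadjusted p under 0.05). Their median log2 fold change was -0.06. In the other settings 2 or 3 were called higher. The lower calls numbered 1 with no filter, with the replicate number as a block or without control replicate 3. Of all tested genes edgeR called 8.63% higher and 9.13% lower. The 8 fibroblast markers, which include Pdgfra, summed to 56500 to 70100 CPM in mutants and 68900 to 76800 CPM in controls. By edgeR 1 of these was called higher and 2 lower (1 and 4 by DESeq2). In bulk samples a change in the number of cells of a type and a change in RNA per cell cannot be told apart.

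Of the 10 members 9 passed the filter on low counts, each of them in all libraries of both groups, and Myf6 did not pass. In the edgeR fit over all genes 6 members were called higher in mutant cells (adjusted p under 0.05), 1 was called lower and 2 were not called. The higher calls numbered 4 with mutant replicate 2 left out and 5 with any 1 control library left out. Over all 15035 genes tested, 8.63% were called higher and 9.13% lower. The same 6 and 1 members had CPM values that did not overlap between groups, against 19.2% of tested genes without overlap and higher and 18.6% without overlap and lower. The median log2 fold change of the 9 members was 1.14, and that of all tested genes was 0.01. Since the contrast chose the members, nothing is read from these shares.

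**Figure D1:**
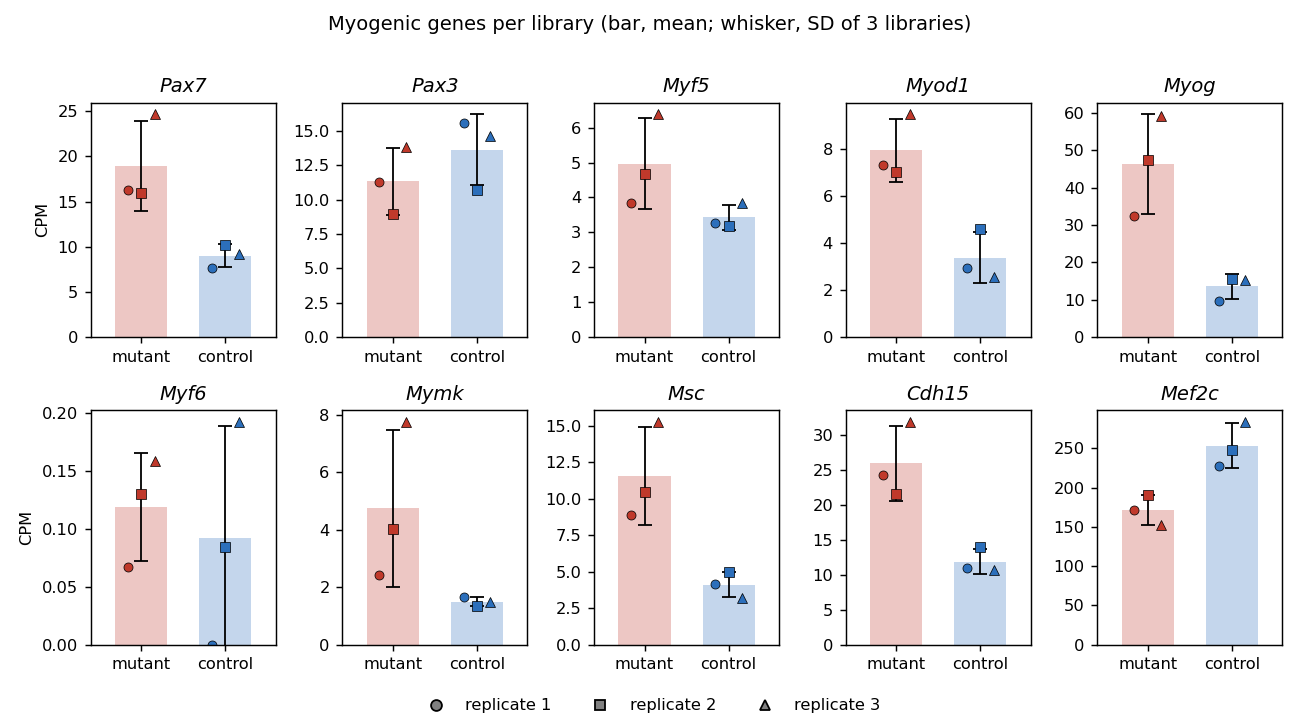
CPM of the 10 members in each library, with mutants on the left of each panel and controls on the right, each axis on its own scale from 0. Bars are means, whiskers are SD of 3 libraries and symbols are replicates. The mutant libraries lie above all controls for Pax7, Myod1, Myog, Mymk, Msc and Cdh15 and below them for Mef2c.

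Among the paired-box genes of progenitors only Pax7 was called. Pax7 had 16.3, 15.9 and 24.7 CPM in mutant replicates 1 to 3, against 7.62, 10.2 and 9.22 CPM in control replicates 1 to 3. Every mutant library was above every control library, and mutant replicate 3 was well above the other two. The fitted log2 fold change was 1.08, a 2.12-fold higher level in mutants, and it stayed between 0.84 and 1.20 when any 1 library was left out.

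Pax3 had 11.3, 8.91 and 13.8 CPM in mutants and 15.6, 10.7 and 14.6 CPM in controls. The groups overlapped, and the log2 fold change of -0.27 was not called. Pax3 is also a gene of melanocytes and of the neural crest. The summed level of 8 melanocyte markers was 278, 163 and 305 CPM in mutant replicates 1 to 3 and 446, 293 and 308 CPM in control replicates 1 to 3. Both Pax3 and that sum were lowest of all libraries in mutant replicate 2 and highest in control replicate 1. Of the 8 markers 2 were called lower by edgeR and 3 by DESeq2, against 9.13% of all tested genes lower by edgeR. No marker was at 0 in all libraries. The edgeR number was 4 with the replicate number as a block, and 1 with no filter, without mutant replicate 1 or without control replicate 2 or 3. Their part in the Pax3 level was not tested.

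The commitment factors Myf5 and Myod1 differed in their values. Myod1 had 7.32, 7.02 and 9.5 CPM in mutants and 2.95, 4.62 and 2.56 CPM in controls, on raw counts of 109, 108 and 180 in mutants and 46, 55 and 40 in controls. The groups did not overlap, and the log2 fold change was 1.26 (2.39-fold). Myf5 had 3.83, 4.68 and 6.39 CPM in mutants and 3.27, 3.19 and 3.84 CPM in controls. The lowest mutant library fell just below the highest control library, and the log2 fold change of 0.54 was not called. With 1 library left out that difference ran between 0.31, without mutant replicate 3, and 0.68, without mutant replicate 1.

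The differentiation factor Myog had the highest level per length of the myogenic helix-loop-helix genes and the largest fitted difference of the members. It had 32.5, 47.5 and 59.2 CPM in mutants, against 9.73, 15.5 and 15.4 CPM in controls. The lowest mutant library was above the highest control library, and control replicate 1 was the lowest of all 6. Means were 46.4 ± 13.4 CPM in mutants and 13.5 ± 3.3 CPM in controls (n = 3 each), and the log2 fold change was 1.79 (3.45-fold). Of the 15035 tested genes 39 had a higher log2 fold change. The Myog call did not hold without mutant replicate 2, and its log2 fold change lay between 1.57 and 1.98 with 1 library left out.

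Myf6, the late factor of fibres, was at the floor. Raw counts were 1, 2 and 3 in mutants and 0, 1 and 3 in controls, no more than the 3 counts that a 0 allows in any library. No fold is given, and a difference in Myf6 was not detectable at this depth.

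The fusion protein gene Mymk had 2.42, 4.03 and 7.76 CPM in mutants, against 1.67, 1.34 and 1.47 CPM in controls. All mutant libraries were higher, and they differed among themselves more than for any other tested member, with a coefficient of variation of 57.9% in mutants and 10.9% in controls. The log2 fold change was 1.67, and it was 1.10 without mutant replicate 3. The call of Mymk did not hold without mutant replicate 2 or without any 1 control library.

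Msc had 8.86, 10.5 and 15.3 CPM in mutants and 4.16, 4.95 and 3.2 CPM in controls. The groups did not overlap, and the log2 fold change was 1.51 (2.84-fold). An annotated antisense gene, Gm9947, shares exon sequence with Msc, and no source used here says whether strand was used in the counting. Gm9947 had 15, 21 and 32 raw counts in mutants and 3, 11 and 9 in controls, and Msc had 132, 162 and 289 in mutants and 65, 59 and 50 in controls, so reads of these genes are uncertain. In human, Msc is also known from activated B cells. Of 6 markers of B cells and plasma cells Ms4a1 and Pax5 were at 0 in all 6 libraries, and the summed level of the list was 0.845 to 1.11 CPM in mutants and 1.09 to 1.73 CPM in controls.

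The cadherin gene Cdh15 had 24.3, 21.6 and 31.9 CPM in mutants and 11, 13.9 and 10.7 CPM in controls. The groups did not overlap, the log2 fold change was 1.14 (2.2-fold), and it lay between 0.96 and 1.26 with 1 library left out. Its spread was 20.7% of the mean in mutants and 15% in controls.

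Mef2c went the other way. It had 171, 191 and 152 CPM in mutants, against 228, 248 and 284 CPM in controls. Every mutant library was below every control library, and the log2 fold change was -0.56. Mef2c is expressed outside muscle as well, in endothelium, smooth muscle and macrophages among others. Of 8 smooth muscle markers 3 fell and none rose in mutants by edgeR (4 and 0 by DESeq2, 3 and 0 at an unadjusted p under 0.05), and their summed level was 587 to 837 CPM in mutants and 984 to 1360 CPM in controls. Of 10 endothelial markers 5 rose and none fell (6 and 0 by DESeq2, 7 and 0 at an unadjusted p under 0.05, and 3 rises without control replicate 3), with sums of 231 to 343 CPM in mutants and 159 to 190 CPM in controls. Of 8 macrophage markers none was called by edgeR or DESeq2 (1 higher at an unadjusted p under 0.05, and 3 called higher without control replicate 1), with sums of 255 to 314 CPM in mutants and 186 to 359 CPM in controls. Of all tested genes 8.63% were called higher by edgeR and 9.13% lower. No marker of these 3 lists was at 0 in all libraries. The part of these cells in the Mef2c level was not tested.

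**Figure D2:**
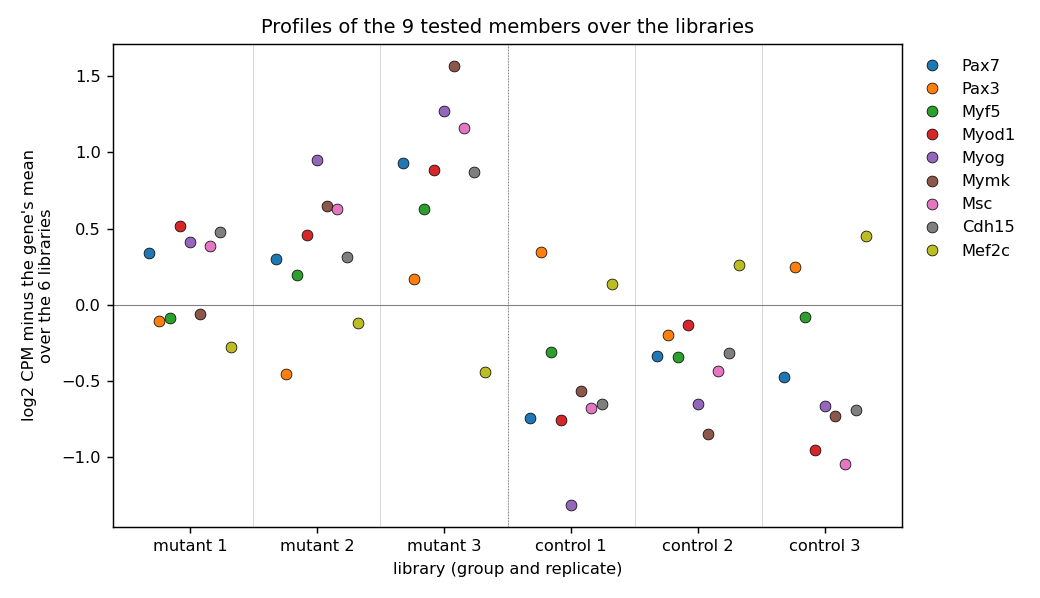
Each tested member's log2 CPM minus its own mean over the 6 libraries (vertical axis), by library, with mutants left of the dotted line and controls right of it. Points are members. In mutant replicate 3 every member except Mef2c lies above its mean, and 7 of them, Pax7, Myf5, Myod1, Myog, Mymk, Msc and Cdh15, have their highest value of all libraries there.

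Likeness between members was measured as the root mean square difference between centred log2 CPM profiles over the 6 libraries, where 0 means the same profile. These profiles hold the difference between mutants and controls that chose the members as well as the variation between libraries of a group. Pax7 and Cdh15 were closest, at 0.12 log2 units, followed by Myod1 and Cdh15 at 0.15. Myog differed from Pax7 by 0.41 and from Cdh15 by 0.43. All these profiles share the same libraries, and the differences are given as a description.

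Levels of different members were compared per kb of exon, since a longer gene yields more reads at the same number of transcripts. In mutants Myog came first with 31 ± 8.95 CPM per kb, followed by Mef2c (10.9 ± 1.23) and Cdh15 (7.98 ± 1.65). Below them were Msc (4.54 ± 1.3), Myod1 (4.27 ± 0.729), Pax7 (3.23 ± 0.845), Mymk (3.13 ± 1.81), Myf5 (2.38 ± 0.626), Pax3 (1.83 ± 0.394) and Myf6 (0.0938 ± 0.037). In controls the order of levels per kb began with Mef2c (16.1 ± 1.81), Myog (9.06 ± 2.21) and Cdh15 (3.65 ± 0.549). Then came Pax3 (2.2 ± 0.424), Myod1 (1.81 ± 0.587), Myf5 (1.65 ± 0.171), Msc (1.61 ± 0.344), Pax7 (1.54 ± 0.219), Mymk (0.988 ± 0.107) and Myf6 (0.0728 ± 0.0762, all n = 3).

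Neighbours in these orders were compared by their ranges over the 3 libraries. In mutants 3 of 9 neighbouring pairs did not overlap, namely Myog above Mef2c, Cdh15 above Msc and Pax3 above Myf6. Without mutant replicate 3 the number was 7. In controls 5 of 9 pairs did not overlap: Mef2c above Myog, Myog above Cdh15, Cdh15 above Pax3, Pax7 above Mymk, and Mymk above Myf6. The levels of Pax3, Myod1, Myf5, Msc and Pax7 in controls overlapped from each to the next. The exon length of Mef2c, 15715 bases over all annotated transcripts, is far above that of Myog, 1495 bases, so its level per kb depends on which of its transcripts are expressed.

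**Figure D3:**
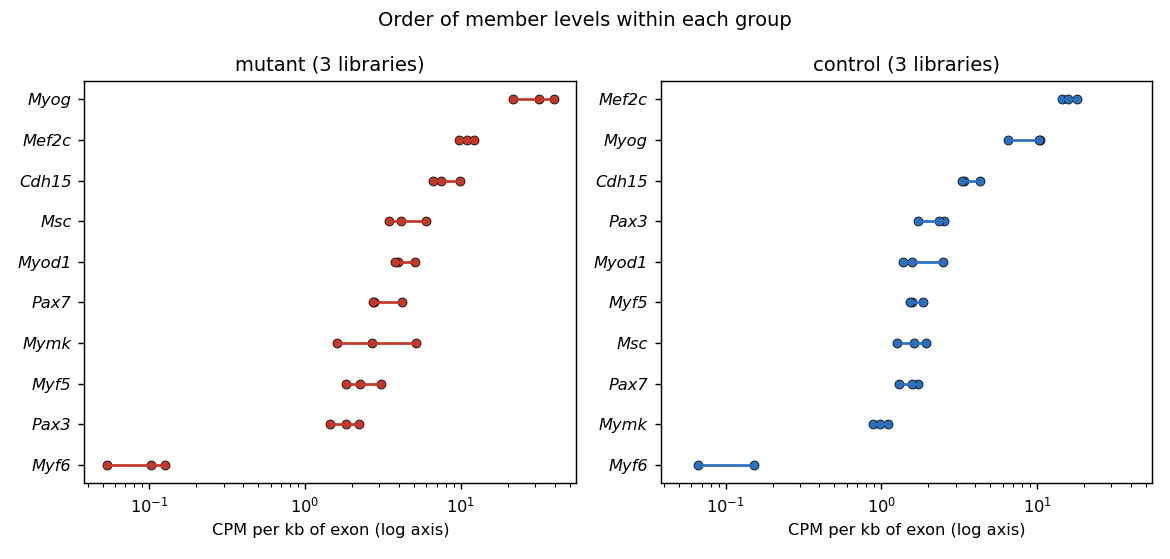
Level of each member per kb of exon (log axis) in the 3 mutant libraries on the left and the 3 control libraries on the right, each panel sorted by its own mean. Points are libraries and lines their range. The Myf6 value of 0 in control replicate 1 is not drawn. Myog is first in mutants, with 21.7 to 39.6 CPM per kb, and Mef2c is first in controls, with 14.5 to 18.1.

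Ratios between members within a library do not depend on the library total. They compare stages of the lineage only where both genes come from muscle cells, which bulk samples do not show. Mef2c is also expressed outside muscle, so its ratio to Myog cannot be read as one of stages. The ratio of Myog to Pax7, both per kb, was 7.81, 11.7 and 9.41 in mutants and 5.01, 5.99 and 6.53 in controls. The ranges did not overlap, with means of 9.65 ± 1.97 in mutants and 5.84 ± 0.774 in controls. The ratio of Myod1 to Pax7 was 1.41, 1.39 and 1.21 in mutants and 1.22, 1.43 and 0.875 in controls. Those ranges overlapped, as did those of Cdh15 to Pax7, at 2.34 to 2.69 in mutants and 2.09 to 2.61 in controls.

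The ratio of Myod1 to Myf5 was 2.14, 1.68 and 1.67 in mutants and 1.01, 1.62 and 0.746 in controls, a separation that rests on a narrow gap to control replicate 2. Myog to Myod1 had ratios of 5.53, 8.41 and 7.75 in mutants and 4.11, 4.19 and 7.47 in controls, which overlapped. Mymk to Myog had ratios of 0.0736, 0.084 and 0.13 in mutants and 0.169, 0.0856 and 0.0948 in controls, which overlapped too. The ratio of Mef2c to Myog was 0.5, 0.383 and 0.245 in mutants and 2.23, 1.52 and 1.76 in controls, with means of 0.376 ± 0.128 in mutants and 1.83 ± 0.36 in controls. Its ranges were the farthest apart of the 9 ratios computed, between the member with the largest positive difference and the one that was lower in mutants. These ratios come from the contrast that chose the members and were not tested.

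**Figure D4:**
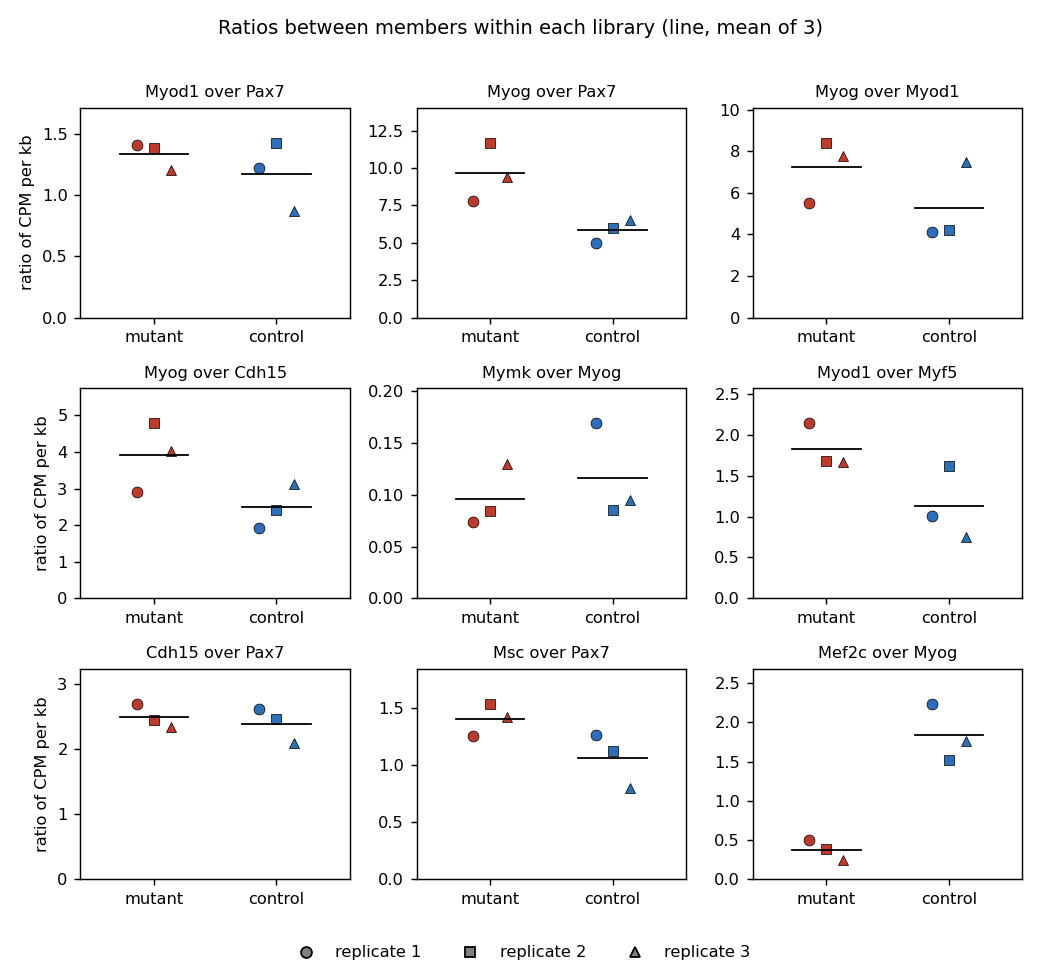
Ratios of levels per kb between members within each library, with mutants left and controls right in each panel. Points are libraries and lines are means of 3. Myog over Pax7 and Myod1 over Myf5 are higher in all mutant libraries than in all control libraries, Mef2c over Myog is lower in all of them, and the other 6 ratios overlap.

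By profile over the 6 libraries, 10895 genes of at least 5 CPM on average were compared with the members, and those most like Myog were Actc1, Fcna, Scn3b, Mybpc1 and Rtl1. Actc1, the cardiac alpha actin that developing skeletal muscle also makes, was 0.12 log2 units from Myog, and the others were 0.24 to 0.25 away. The median gene was 0.95 away. With a minimum of 1 CPM in place of 5, the nearest 5 kept 1 of these genes for Myog, 1 of 5 for Msc and 3 of 5 for Cdh15, and Dcx and Aqp7, at 0.16 and 0.2, were nearer to Myog than Fcna. These distances too hold the difference between mutants and controls. The genes most like Msc were Cd300lg, Myod1, Calm4, Scn3b and Dmrt2, at 0.16 to 0.22. The genes most like Cdh15 were Chrnb1, a subunit of the muscle acetylcholine receptor, Scube2, Sod3, Pamr1 and Tmem86a, at 0.09 to 0.11. Actc1 had 63.8, 70.9 and 98.4 CPM in mutants and 16.7, 27.1 and 24.7 CPM in controls.

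Other genes of the myogenic pathway were taken by role in 5 lists. Among 17 tested partner and upstream factors 5 rose, 1 fell and 11 were not called by edgeR, against 8.63% and 9.13% of all tested genes. Pitx3, a homeobox factor of differentiating muscle, had 2.62, 3.25 and 4.38 CPM in mutants and 1.15, 1.09 and 1.15 CPM in controls (log2 fold change 1.59, edgeR adjusted p = 0.00288). Eya2, a transcriptional cofactor of the muscle lineage, rose by 0.76 (edgeR adjusted p = 0.0122), a call lost without mutant replicate 3 (0.06). In both genes the groups did not overlap. The median of the list was 0.11, and 3 rose without mutant replicate 3.

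Further calls of that list were chosen for mention after their values were seen. Lbx1, a homeobox factor of migrating limb muscle precursors, rose by 1.35 on the log2 scale (edgeR adjusted p = 0.0151). Tcf3, which encodes an E-protein partner of the myogenic factors, rose by 0.27 (edgeR adjusted p = 0.0275). That call of Tcf3 was lost without any 1 mutant library or without control replicate 2 or 3 (largest adjusted p 0.0981). Meox2, a homeobox gene of somites and of vascular cells, fell by 0.59 (edgeR adjusted p = 0.0151). Of the other MEF2 genes, Mef2a had a log2 fold change of -0.01 (edgeR adjusted p = 0.924) and Mef2d one of 0.14 (edgeR adjusted p = 0.215).

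Among 14 tested inhibitors of myogenic factors none rose, 5 fell and 9 were not called, with a median log2 fold change of -0.25. The shares of all tested genes called were 8.63% higher and 9.13% lower. Id2, which binds E-proteins and keeps them from DNA, had 62.9, 56.2 and 59.3 CPM in mutants and 99.5, 80.2 and 97.2 CPM in controls (log2 fold change -0.64, edgeR adjusted p = 0.0011). Snai1, a repressor that competes at E-boxes, fell by 0.68 (edgeR adjusted p = 0.00142). Hes1, a Notch target, fell by 0.74 (edgeR adjusted p = 0.00786). No rise was called by DESeq2 either, and at an unadjusted p under 0.05 the counts were 0 higher and 7 lower. The falls numbered 3 when any 1 mutant library, control replicate 2 or control replicate 3 was left out. Mstn, the gene of myostatin, was called higher with no filter or with control replicate 1 left out. These genes are expressed far beyond muscle, and the levels do not tell the cell type that carries them.

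Among 16 tested satellite cell genes of the surface and of quiescence 3 rose, 4 fell and 9 were not called, with a median of -0.04. Of all tested genes 8.63% were called higher and 9.13% lower. Chodl, a membrane protein with a lectin domain, had 38.7, 30.1 and 37.2 CPM in mutants and 50.1, 63.6 and 60.4 CPM in controls (log2 fold change -0.71, edgeR adjusted p = 0.00247). Cav1, a caveolin gene, fell by 0.52 (edgeR adjusted p = 0.00657). Fgfr4, a growth factor receptor of myoblasts, had 104, 111 and 102 CPM in mutants and 128, 160 and 140 CPM in controls (log2 fold change -0.43, edgeR adjusted p = 0.0071). In these 3 genes no mutant library reached the lowest control library. Control means were 761 CPM for Cav1, 142 for Fgfr4 and 58 for Chodl, against 9 for Pax7. The levels do not tell the cell type that carries these genes. The rises, of Met, Megf10 and Sdc3, numbered 0 when replicate 3 of either group was left out, and 1 with the replicate number as a block or with control replicate 2 left out. They numbered 4 by DESeq2 and 5 with no filter.

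Among 18 tested genes of myoblast fusion and adhesion 2 rose, 4 fell and 12 were not called, with a median of 0.03. Calls over all tested genes were 8.63% higher and 9.13% lower. Mymx, the small membrane protein that works with Mymk in fusion, had 5.57, 2.93 and 4.12 CPM in mutants and 0.448, 0.755 and 1.22 CPM in controls (log2 fold change 2.36, edgeR adjusted p = 0.00167). Unlike Mymk, its lowest mutant value was in replicate 2 and its highest in replicate 1. Myof, a ferlin of membrane fusion and repair, had 117, 122 and 119 CPM in mutants and 209, 194 and 182 CPM in controls (log2 fold change -0.71, edgeR adjusted p = 0.000172). Neo1, a receptor that works with Cdon in myoblasts, rose by 0.38 (edgeR adjusted p = 0.00717). Cdon, named here with its values known, had 269, 245 and 255 CPM in mutants and 300, 325 and 316 CPM in controls. It fell by 0.29 on the log2 scale (edgeR adjusted p = 0.0185), a call lost without replicate 2 or 3 of either group (largest adjusted p 0.0771). Falls numbered 2 when replicate 2 or replicate 3 of either group was left out. Control means were 314 CPM for Cdon, 195 for Myof and 148 for Neo1, against 13.5 for Myog. The levels do not tell the cell type that carries these genes.

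Among 23 tested genes of differentiated muscle 17 rose, none fell and 6 were not called by edgeR, with a median log2 fold change of 1.33. Over all tested genes 8.63% were called higher and 9.13% lower. The rises of the list numbered 13 without mutant replicate 3, 14 without control replicate 3 and 16 to 18 without any other library. At an unadjusted p under 0.05 the counts were 20 higher and 0 lower, and DESeq2 called 18 higher and 0 lower. Chrng and Chrnd, subunits of the fetal muscle acetylcholine receptor, had log2 fold changes of 1.80 and 1.54 (edgeR adjusted p = 0.00332 and 0.00352). Chrng had 2.08, 2.21 and 2.53 CPM in mutants and 0.448, 0.587 and 0.896 CPM in controls. Myl1, a fast myosin light chain, had 4.3, 3.51 and 6.23 CPM in mutants and 0.768, 1.76 and 1.54 CPM in controls (log2 fold change 1.81, edgeR adjusted p = 0.00362). Des, a filament gene of both muscle and mural cells named here with its values known, had 26.7 ± 5.35 CPM in mutants and 24.9 ± 4.38 CPM in controls and was not called (edgeR adjusted p = 0.716). Earlier results had shown muscle genes higher in these samples, so the count is not independent of the members.

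**Figure D5:**
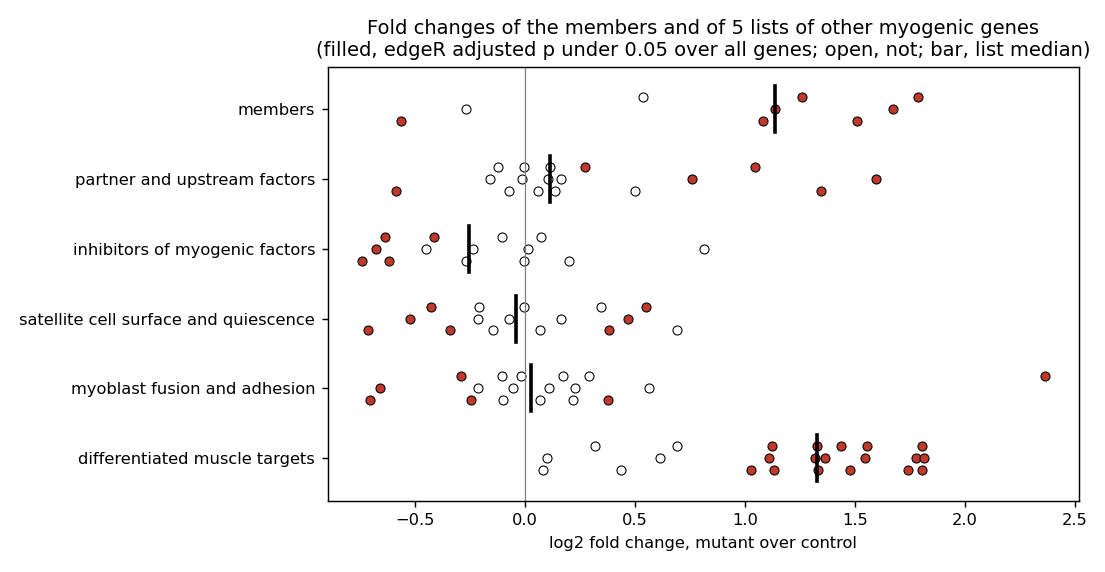
Log2 fold change, mutant over control, of the tested members and of 5 lists of other myogenic genes. Each point is a gene, filled where the edgeR adjusted p over all genes was under 0.05, and the bar is the list median. The median is 1.14 for the members and 1.33 for differentiated muscle genes, and it lies between -0.25 and 0.11 for the other lists.

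Marker sums of several cell types moved with the members. The summed level of 12 fibre genes was 87, 93.9 and 138 CPM in mutants and 38.9, 44.3 and 45.6 CPM in controls, highest in mutant replicate 3 like most members. All 12 are also in the list of differentiated muscle genes above, so this sum is not a separate observation. Sums of 6 keratinocyte markers were 869 to 1080 CPM in mutants and 451 to 725 CPM in controls. Of these 6 markers 4 were called higher, against 8.63% of all tested genes. Those calls numbered 1 without mutant replicate 1 or 3 or control replicate 3, and 2 without mutant replicate 2 or with no filter. Sums of 6 red cell markers were 6.11 to 13.8 CPM in mutants and 1.54 to 5.12 CPM in controls. Neither of the 2 tested red cell markers was called by edgeR, both were at an unadjusted p under 0.05, and DESeq2 called 2 higher. With no filter edgeR called 4. With mutant replicate 2 or control replicate 1 left out edgeR called 1, and with control replicate 2 left out it called 2. Endothelial sums, given above, were also higher in all mutant libraries. The 8 satellite cell markers, 4 of them members, summed to 227 to 260 CPM in mutants and 234 to 284 CPM in controls. Of these markers 4 were called higher and 2, Fgfr4 and Chodl, lower, against 8.63% and 9.13% of all tested genes. At an unadjusted p under 0.05 the counts were 6 higher and 2 lower. Fgfr4, at 142 CPM on average in controls, and Chodl, at 58 CPM, made up most of that sum. The sum therefore mainly follows these 2 genes. The part of other cell types in the members' levels was not tested.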

How the data were processed

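The authors deposited whole-number read counts per Ensembl gene, 1 file for each of 6 libraries. Per the submitters' processing notes, the build was mm9 and cutadapt 1.1, TopHat2 2.0.4 and HTSeq 0.5.3 were among the tools, with no order stated. The 5 rows without a gene, 36.9% to 41.7% of listed reads, were left out. Symbols and exon lengths came from GENCODE M21, a later build, and symbols matched 86.6% of rows. Libraries within a group differed by more than sampling noise (chi-square over degrees of freedom at least 4.73).

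TMM scaling, filterByExpr (minimum count 10, minimum total 15) and the robust quasi-likelihood F test of edgeR 4.0.16 (R 4.3.3) were used, with group as the model. Calls needed a Benjamini-Hochberg adjusted p under 0.05 over all genes. A permutation of 6 libraries could not go below 0.1. The code was tested on simulated data. Profiles used log2 CPM with a prior count of 2. Alternatives were DESeq2 1.42.0, its size factors, no filter, a replicate block and leaving out each library. The labels number 3 replicates per genotype and give no batch.

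Members and lists were chosen with earlier results of these data known. Each list named its 3 called genes of smallest adjusted p, except that some items are not reported here, and Myog, Msc and Cdh15 the 5 genes nearest in profile.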

Additional observations from a re-analysis of the deposited data

How the results depend on the processing

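The log2 fold changes of the 9 tested members moved by less than the spread between replicates in all 90 refits, and none changed sign. For refits with 1 library left out that result was nearly fixed in advance. Dropping 1 of 3 values shifts their mean by less than this spread, so nothing is concluded from it there. Mymk went from 1.67 to 1.10 without mutant replicate 3, against a spread of 0.587. Called members numbered 6 higher and 1 lower with DESeq2, with its size factors in edgeR, with no filter and with the replicate block. With 1 library left out they numbered 4 to 6 higher and 1 lower. Over all genes, leaving out 1 library gave 658 to 1199 higher and 753 to 1500 lower, against 1298 and 1372 with all 6. The counts were more than 1.5 times smaller without mutant replicate 3 (658 and 753), control replicate 2 (776 and 881) and control replicate 3 (679 and 807). Calls over the 5 lists of other myogenic genes numbered 27 higher and 14 lower, and 18 to 29 higher and 9 to 15 lower with 1 library left out, the fewest without mutant replicate 3. Without control replicate 1, the counts over all genes were 1199 higher and 1500 lower. The cause of these differences, the smaller number of samples included, was not tested.

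With the replicate block 1328 genes were higher and 1439 lower. Same-numbered libraries had deviations from their group means that correlated at 0.117, -0.0293 and -0.0866. The labels do not say whether the numbers pair mice, and correlations in so few libraries cannot decide it. The titles number the mutant libraries 1 to 3, and the deposited files number them 2 to 4. By the numbers of the files 2 pairs are left, with correlations of -0.0574 and 0.158, and the block was fitted by the titles alone. Without division by exon length, 5 neighbouring pairs of member levels did not overlap in mutants, against 3 per kb, since dividing changes which members are neighbours. With 1 mutant library left out the number was 3 to 7. In controls it was 5 to 6. A minimum mean of 1 CPM changed which genes were nearest in profile (1 of 5, 1 of 5 and 3 of 5 kept for Myog, Msc and Cdh15). Depth limits Myf6, at 0 to 3 counts, and Mymk in controls, at 16 to 26 counts.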
